A study of Caenorhabditis elegans with 9 samples.

Results

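Potassium channels and degenerin channels are the subject here, taken from the gene table by name. A gene was included when its entry carried a single symbol of the *twk*, *kqt*, *irk*, *kvs*, *del*, *acd* or *asic* series, or was *sup-9*, *shk-1*, *shl-1*, *egl-36*, *egl-2*, *slo-1*, *slo-2*, *unc-8*, *unc-105*, *mec-4*, *mec-10* or *deg-1*. This gave 79 genes of 40313 entries, 59 in the potassium class and 20 in the degenerin class. A further 6 genes with such names, *unc-103*, *twk-10*, *twk-13*, *kvs-2*, *acd-3* and *del-5*, shared an entry with a second gene and were left out, because the value of a joined entry cannot be divided.

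RNA came from whole *C. elegans* hermaphrodites of 3 genotypes, *daf-1(m40)* mutants, worms that carry both *daf-1(m40)* and *daf-3(mgDf90)* and were made by crossing (*daf-1*; *daf-3*, the double mutant), and wild-type N2, with 3 libraries each. All were fed NA22 *E. coli*, grown at 16 °C until L4 and shifted to 25 °C, for 25 h by the sample labels and for a slightly shorter time by the written methods. The replicate number marks a batch, so batches 1, 2 and 3 each hold 1 library of every genotype. The authors set aside *daf-1*; *daf-3* replicate 3 as an outlier, so genotype comparisons below rest on 8 libraries, with 2 double mutant libraries, unless 9 are named, and batch comparisons use 9.

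Potassium channels let potassium leave the cell and so hold or restore the resting potential of neurons and muscle. Two-pore channels (*twk*, *sup-9*) carry a background leak, voltage-gated channels (*shk-1*, *shl-1*, *egl-36*, *kvs*, *egl-2*, *kqt*) open on depolarization, SLO channels (*slo-1*, *slo-2*) respond to intracellular ions as well as to voltage, and inward rectifiers (*irk*) pass current best near rest. Degenerins belong to the DEG/ENaC family of sodium-permeable channels, of which MEC-4 and MEC-10 carry the touch current of *C. elegans* and others act in motor neurons, muscle, glia or intestine. DAF-1 is a type I TGFβ receptor of the DAF-7 pathway, and DAF-3 is a SMAD protein that the pathway opposes.

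The labels held for the deleted gene. *daf-3* was listed at 0, 0.0147 and 0 FPKM (fragments per kilobase of transcript, scaled to the mapped fragments of the library) in *daf-1*; *daf-3* replicates 1, 2 and 3, against 19.9, 22.3 and 20.6 FPKM in *daf-1* and 19.2, 18.8 and 22.5 FPKM in N2. *daf-1* RNA was present in every library, at 12.8 to 13.9 FPKM in *daf-1*, 13 to 14.5 FPKM in *daf-1*; *daf-3* and 21.6 to 23.7 FPKM in N2. Relative depth, read from the steps between low FPKM values, ran from 0.928 to 1.41 times that of N2 replicate 2, and the batch 3 library was the deepest of each genotype. Markers of neurons, touch receptor neurons, body wall muscle, hypodermis, intestine and oocytes were found in the tested entries, and of 5 sperm genes with an entry of their own 1 was at 0 in every library.

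Most channel genes were rare in whole-worm RNA. The median of the gene means was 1.29 FPKM over all 79 genes, 1.42 FPKM in the potassium class and 0.693 FPKM in the degenerin class. Means of 1 FPKM or more were reached by 46 genes and means of 10 FPKM or more by 2, while 12 genes never reached 0.5 FPKM. No gene was at 0 in all 9 libraries. Testing was limited to entries with 0.5 FPKM or more in 2 or more libraries, which kept 61 members with 8 libraries (48 potassium, 13 degenerin) and 63 with 9 (49 and 14). Those below the limit with 8 libraries included *mec-4*, *asic-1*, *asic-2* and *del-4*, and 11 *twk* genes, among them *twk-37*, which was above 0 only in *daf-1* replicate 1. Of the 61, 3 reached the limit in libraries of 1 genotype only, *acd-1* in the double mutant and *twk-40* and *del-1* in *daf-1*, so their tests depend on the group where they are high. Counts over the 61 members include these 3. In bulk RNA of whole worms, fewer cells of a type and less RNA per cell cannot be told apart.

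The 2 genes above 10 FPKM differed in class. *del-6*, a degenerin family member, measured 51.0, 51.8 and 44.8 FPKM in *daf-1*, 33.6, 42.8 and 22.6 FPKM in *daf-1*; *daf-3* replicates 1 to 3, and 45.4, 40.6 and 32.7 FPKM in N2. *twk-18*, a two-pore channel of body wall muscle, measured 12.4, 12.6 and 13.6 FPKM in *daf-1*, 7.11, 8.67 and 14.5 FPKM in the double mutants, and 8.55, 7.96 and 12 FPKM in N2. The *daf-1* libraries overlapped with N2 for *del-6* and lay above N2 for *twk-18*, and neither gene reached the 2-fold limit in any comparison.

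A gene was called when its fold change was 2 or more and its limma adjusted p was below 0.05, with the Benjamini-Hochberg adjustment taken across every tested entry. Fold changes are on the log2(FPKM + 0.25) scale and understate those of genes with low FPKM. SEs are those of the fitted difference. A share of members called has to be read against the share of all tested entries called in the same comparison and direction.

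Against N2, 2 channel genes rose in *daf-1* mutants and none fell. Both were potassium channels, *kqt-2* of the KCNQ-type family and the two-pore channel *twk-28*. Of 13751 tested entries 6.27% were called higher and 0.953% lower, so 2 of 61 members (3.28%) is no more than the background. The calls were the same 2 genes with all 9 libraries (background 3.97% higher, 0.64% lower) and with the batch as a block. Both calls were lost with a pseudocount of 1 or with quantile normalization. *kqt-2* was also lost without N2 replicate 2, *twk-28* without *daf-1* replicate 3, and without N2 replicate 3 the count was 7.

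*kqt-2* measured 4.11, 4.17 and 4.85 FPKM in *daf-1*, 3.92, 4.01 and 3.87 FPKM in *daf-1*; *daf-3*, and 2.39, 1.53 and 1.87 FPKM in N2. All 6 mutant libraries lay above all 3 N2 libraries. The *daf-1* level was 2.15-fold that of N2 (log2 1.10 ± 0.19 SE, limma adjusted p = 0.00704). For double mutant vs. N2 the difference was 0.97 ± 0.22 (limma adjusted p = 0.0178) and just missed the 2-fold limit, which it passed with the batch block (1, limma adjusted p = 0.0299). Between *daf-1* and *daf-1*; *daf-3* the difference was 0.13, with a 95% interval from −0.36 to 0.62. *kqt-2* lies on the minus strand of the X chromosome at X:8243131-8246369 (WBcel235), and its exons share 3 bases with *endu-2* on the other strand.

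*twk-28* followed a similar order at lower levels. It measured 1.35, 1.71 and 1.76 FPKM in *daf-1*, 1.01, 1.12 and 1.07 FPKM in *daf-1*; *daf-3*, and 0.360, 0.463 and 0.728 FPKM in N2, so that no library of one genotype overlapped with another. The *daf-1* level was 2.46-fold that of N2 (1.30 ± 0.26, limma adjusted p = 0.0117). The other 2 comparisons of *twk-28* were not called, at 0.49 ± 0.29 for *daf-1* vs. double mutant (limma adjusted p = 0.209) and 0.81 ± 0.29 for double mutant vs. N2 (limma adjusted p = 0.0955). *twk-28* lies at X:4274719-4279344 on the minus strand, and 253 bases of its exons overlap with C52B9.10 on the plus strand. The sources used here do not say whether counting used strand, so reads in those bases may belong to either gene.

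The rest of the family leaned the same way by less than the fold limit. Of 61 tested members 52 had a positive *daf-1* vs. N2 difference (85.2%, against 50.9% of all tested entries), with a median of 0.41 against 0.016 over all tested entries. The medians were 0.40 in the potassium class and 0.45 in the degenerin class. In the degenerin class 0 of 13 were called by limma and 5 were higher at an unadjusted p below 0.05, where 20.6% of all tested entries were. Without the fold limit 4 more members passed in *daf-1* vs. N2, all of them higher. The share of all tested entries that passed without it is not given here, so these 4 genes cannot be read as a trait of the members. They were the two-pore channels *twk-24* (0.60) and *twk-34* (0.76) and the degenerins *acd-2* (0.73) and *acd-5* (0.65), of which *acd-5* encodes an intestinal channel subunit. In *daf-1* vs. N2, 19 of 61 members had every *daf-1* library above every N2 library (31.1%, background 22.2%), and 2 had every one below (3.28%, background 29.2%). The lean depended on scaling, since quantile normalization moved the class medians to −0.018 (potassium) and 0.080 (degenerin) and that of all entries to −0.10. Marker lists leaned the same way in *daf-1* vs. N2, apart from that of oocytes. All 5 oocyte genes were lower in *daf-1* (median −0.33), each at an unadjusted p below 0.05 in limma, and 0 were called. The share of all tested entries lower at that p is not given here, and 29.2% had every *daf-1* library below every N2 library. All 7 body wall muscle genes (median 0.73) and 13 of 15 neuron genes (median 0.59) were positive, 7 and 11 of them at an unadjusted p below 0.05, and by limma 0 of either list were called. The part of these tissues in the lean of the channel genes was not tested.

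**Figure D1:**
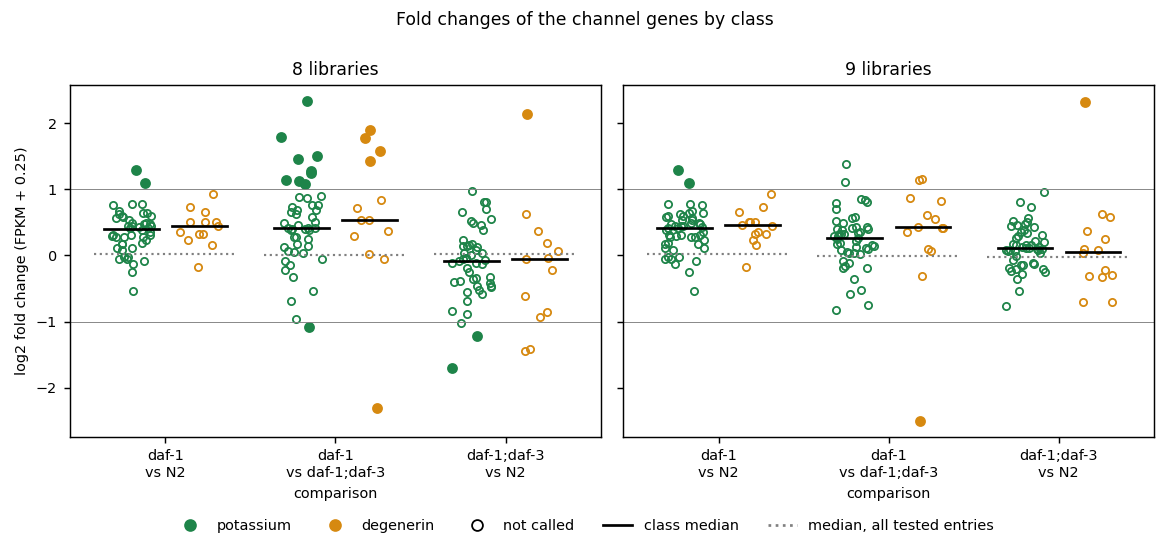
Log2 fold changes (FPKM + 0.25) of the tested potassium (green) and degenerin (orange) genes in the 3 comparisons, with 8 libraries on the left and 9 on the right. Filled points were called, black bars are class medians and dotted lines are the median of all tested entries. The cloud of called points above 1 in *daf-1* vs. double mutant with 8 libraries has no called point with 9, where the point near −2.5 (*acd-1*) is the only one left.

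The largest set of differences was between *daf-1* and *daf-1*; *daf-3*. With 8 libraries 13 members were higher in *daf-1* (21.3% of 61, background 11.2%) and 2 were lower (3.28%, background 1.43%). The 13 include *twk-40* and the 2 include *acd-1*, whose tests depend on the group where each is high. In the potassium class 9 of 48 were higher and 1 lower, and in the degenerin class 4 of 13 were higher and 1 lower. By family, 7 of 32 tested two-pore genes, 1 of 2 SLO genes, the EAG-type gene, 2 of 6 *del* genes and 2 of 4 other degenerins were higher, while 0 of 3 *kqt* and 0 of 3 *irk* genes were called by limma in either direction (0 and 1 higher at an unadjusted p below 0.05, background 22.9%). Among the 7 Kv-type genes the only call was *kvs-5*, which was lower. *daf-1* vs. double mutant uses the same *daf-1* libraries as *daf-1* vs. N2, so the calls of the 2 comparisons are not independent.

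By position in the order of libraries, double mutant replicates 1 and 2 lay below the other 6 of the 8 libraries for 13 of 61 members (21.3%, background 16.3%) and above them for 5 (8.2%, background 9.93%).

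Among two-pore channels the largest difference was that of *twk-11*. It measured 2.38, 2.68 and 3.43 FPKM in *daf-1*, 0.274, 0.453 and 4.05 FPKM in *daf-1*; *daf-3* replicates 1, 2 and 3, and 1.32, 1.17 and 3.24 FPKM in N2. Double mutant replicates 1 and 2 were the lowest of the 9 libraries and replicate 3 was the highest. With 8 libraries *twk-11* was 5.02-fold higher in *daf-1* than in *daf-1*; *daf-3* (2.33 ± 0.40, limma adjusted p = 0.0067). With all 9 the difference was 1.39 ± 0.73 (limma adjusted p = 0.284).

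*sup-9*, the TASK-like two-pore channel that works with UNC-93 and SUP-10 in muscle, was also highest in double mutant replicate 3 and N2 replicate 3. It measured 1.55, 2.03 and 2.32 FPKM in *daf-1*, 0.686, 0.432 and 2.87 FPKM in the double mutants, and 0.684, 1.02 and 2.49 FPKM in N2. Double mutant replicate 1 and N2 replicate 1 were level. The steps of the *sup-9* values correspond to 42, 49 and 63 fragments in *daf-1*, 18, 10 and 81 in *daf-1*; *daf-3* and 15, 24 and 83 in N2. The *daf-1* vs. double mutant difference of *sup-9* was 1.46 ± 0.44 (limma adjusted p = 0.0333) and its adjusted p was 0.0516 in limma with the batch block. *twk-14* was thinner, with 23, 24 and 33 fragments in *daf-1*, 5, 5 and 28 in *daf-1*; *daf-3* and 5, 8 and 28 in N2 (1.24 ± 0.37 for *daf-1* vs. double mutant, limma adjusted p = 0.0329). Whole fragment numbers of this kind, within a tolerance of 0.1, came out for 14 of the 79 members.

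*twk-40*, a two-pore channel of neurons, measured 0.548, 0.472 and 0.836 FPKM in *daf-1*, 0.0889, 0.207 and 0.697 FPKM in *daf-1*; *daf-3*, and 0.157, 0.185 and 0.450 FPKM in N2. *twk-40* and the degenerin *unc-8* are named in the article on these libraries, so their direction is not independent evidence. The article drew its list from genes raised in *daf-1* against both other genotypes. In *daf-1* vs. N2 neither was called here, at 0.78 for *twk-40* (limma adjusted p = 0.108) and 0.92 for *unc-8* (limma adjusted p = 0.0854). The *twk-40* difference between *daf-1* and *daf-1*; *daf-3* was 1.12 ± 0.38 (limma adjusted p = 0.0479), close to the threshold. Among the 8 libraries *twk-40* reached the level limit only in *daf-1* replicates 1 and 3. *twk-31* (1.14), *twk-39* (1.28) and *twk-48* (1.08) were the other two-pore genes called, with limma adjusted p between 0.0243 and 0.0371. With the batch block *sup-9*, *twk-14*, *twk-31*, *twk-40* and *twk-48* lost the call, at 1.18, 1.05, 0.96, 0.91 and 0.87. With all 9 libraries the differences of *sup-9*, *twk-14*, *twk-31*, *twk-39*, *twk-40* and *twk-48* were 0.80, 0.84, 0.58, 0.79, 0.70 and 0.57 (limma adjusted p from 0.273 to 0.428).

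Of the calcium-activated channels, *slo-1* encodes the BK channel, which limits transmitter release at synapses. It measured 6.65, 7.53 and 9.24 FPKM in *daf-1*, 1.75, 2.42 and 9.16 FPKM in *daf-1*; *daf-3*, and 3.87, 3.99 and 8.51 FPKM in N2. Double mutant replicates 1 and 2 lay below all other libraries, and the 3 batch 3 libraries were nearly level. The *daf-1* vs. double mutant difference was 1.79 ± 0.34 with 8 libraries (limma adjusted p = 0.00823) and 1.11 ± 0.55 with 9 (limma adjusted p = 0.267). Its relative *slo-2* measured 4.69, 4.74 and 4.88 FPKM in *daf-1*, 3.08, 4.11 and 4.11 FPKM in the double mutants and 3.28, 2.66 and 3.73 FPKM in N2, and was not called in any comparison.

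Voltage-gated channels moved in both directions. *egl-2*, an EAG-type channel, measured 2.10, 2.08 and 2.58 FPKM in *daf-1*, 0.408, 0.92 and 3.18 FPKM in *daf-1*; *daf-3*, and 1.21, 1.14 and 2.51 FPKM in N2 (*daf-1* vs. double mutant 1.51 ± 0.38, limma adjusted p = 0.0183, and 0.85 with 9 libraries, limma adjusted p = 0.345). *kvs-5*, a Kv-type subunit gene, ran the other way with 3.01, 4.24 and 4.16 FPKM in *daf-1*, 6.76, 10.1 and 4.73 FPKM in *daf-1*; *daf-3*, and 4.33, 6.12 and 6.5 FPKM in N2. All 3 *daf-1* libraries of *kvs-5* lay below all other libraries. The *kvs-5* difference was −1.08 ± 0.25 with 8 libraries (limma adjusted p = 0.0153) and −0.83 ± 0.29 with 9 (limma adjusted p = 0.185). The two-pore gene *twk-42* had 3.73, 3.71 and 3.41 FPKM in *daf-1*, 7.12, 7.39 and 4.69 FPKM in *daf-1*; *daf-3* and 4.39, 4.81 and 3.87 FPKM in N2. Its difference of −0.96 ± 0.16 (limma adjusted p = 0.0064) fell short of the fold limit, and 28 of its exonic bases overlap with *fat-5* on the other strand.

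Degenerins that act in neurons were among those higher in *daf-1* than in the double mutant. *unc-8*, a motor neuron channel gene, measured 0.837, 0.719 and 1.51 FPKM in *daf-1*, 0.0782, 0.142 and 1.09 FPKM in *daf-1*; *daf-3*, and 0.259, 0.297 and 0.728 FPKM in N2 (1.78 ± 0.41 for *daf-1* vs. double mutant, limma adjusted p = 0.0147). *deg-1*, which carries a mechanoreceptor current in sensory neurons, measured 1.69, 1.77 and 1.70 FPKM in *daf-1*, 0.366, 0.614 and 2.37 FPKM in the double mutants, and 0.908, 0.992 and 1.63 FPKM in N2 (1.43 ± 0.30, limma adjusted p = 0.011). For both genes, *daf-1* was above double mutant replicates 1 and 2 and replicate 3 lay within or above the *daf-1* range. With 9 libraries their differences were 1.14 and 0.82 (limma adjusted p = 0.265 and 0.32).

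*del-3* measured 1.98, 1.82 and 2.71 FPKM in *daf-1*, 0.261, 0.563 and 2.75 FPKM in the double mutants, and 0.784, 1.34 and 3.01 FPKM in N2. *del-2* measured 1.88, 1.94 and 2.31 FPKM in *daf-1*, 0.323, 0.777 and 3.06 FPKM in the double mutants, and 1.2, 1.42 and 3.24 FPKM in N2. In *daf-1* vs. double mutant with 8 libraries they differed by 1.89 ± 0.47 and 1.58 ± 0.42 (limma adjusted p = 0.0178 and 0.0216), and with 9 by 1.15 and 0.87 (limma adjusted p = 0.303 and 0.366). The touch channel genes were scarcer. *mec-10* was not called in any comparison, and *mec-4*, with values between 0.110 and 0.656 FPKM, passed the level limit only with 9 libraries.

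**Figure D2:**
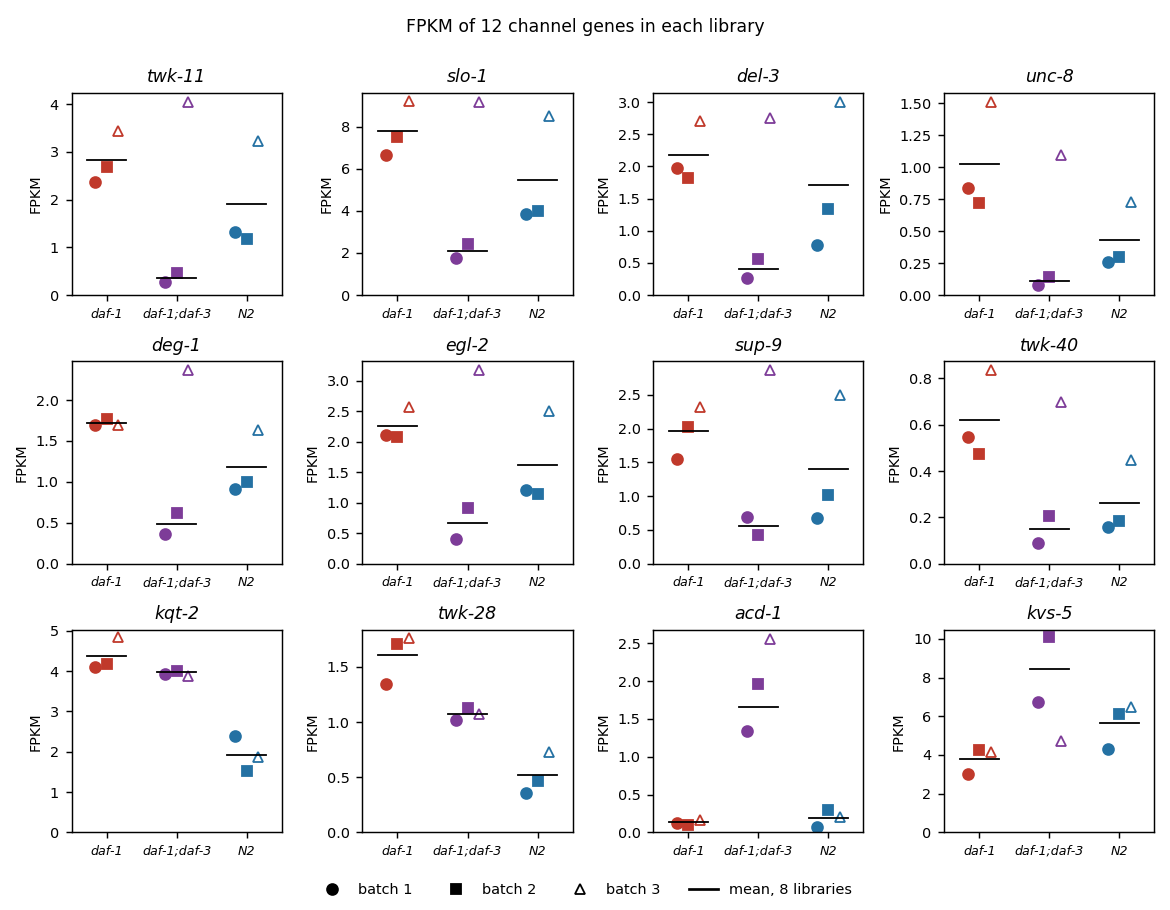
FPKM of 12 channel genes in each library, by genotype on the horizontal axis and by batch symbol, with the mean of the 8 libraries as a bar. In the first 8 panels the open triangle of *daf-1*; *daf-3* batch 3 lies within or above the *daf-1* range while the filled double mutant symbols are low. In *acd-1* all 3 double mutant libraries, from 1.34 to 2.55 FPKM, are above every other library.

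The calls against the double mutant depended on which of its libraries were used. With all 9 libraries 1 of the 15 calls of *daf-1* vs. double mutant was left, *acd-1*, whose test depends on the group where it is high. By limma 0 members were called higher (background 0.64%), and 1 was higher at an unadjusted p below 0.05 (background 7.64%). Of all entries 0.532% were called lower. Leaving out double mutant replicate 1 left 1 call (*kvs-5*), and leaving out replicate 2 left 10, of which 8 were among the 15. In both cases *acd-1* was below the level limit and was not tested. Leaving out *daf-1* replicate 3 left 5 and leaving out *daf-1* replicate 2 left 8. Leaving out *daf-1* replicate 1 left 11. With batches 1 and 2 alone, an alternative added after the data were seen, 12 of the 15 calls stayed.

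Within batches the potassium class median of *daf-1* minus *daf-1*; *daf-3* was 0.57, 0.26 and −0.13 in batches 1, 2 and 3. The degenerin class median was 0.61, 0.39 and −0.021. Over all tested entries the median was 0.0069, −0.037 and −0.058 in batches 1, 2 and 3. In batch 3, 19 of 48 potassium genes and 6 of 13 degenerins were positive, against 5617 of all 13751 tested entries. For *slo-1* the 3 differences were 1.79, 1.54 and 0.013, and for *twk-11* 2.33, 2.06 and −0.23, so the direction of *twk-11* turned in batch 3.

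**Figure D3:**
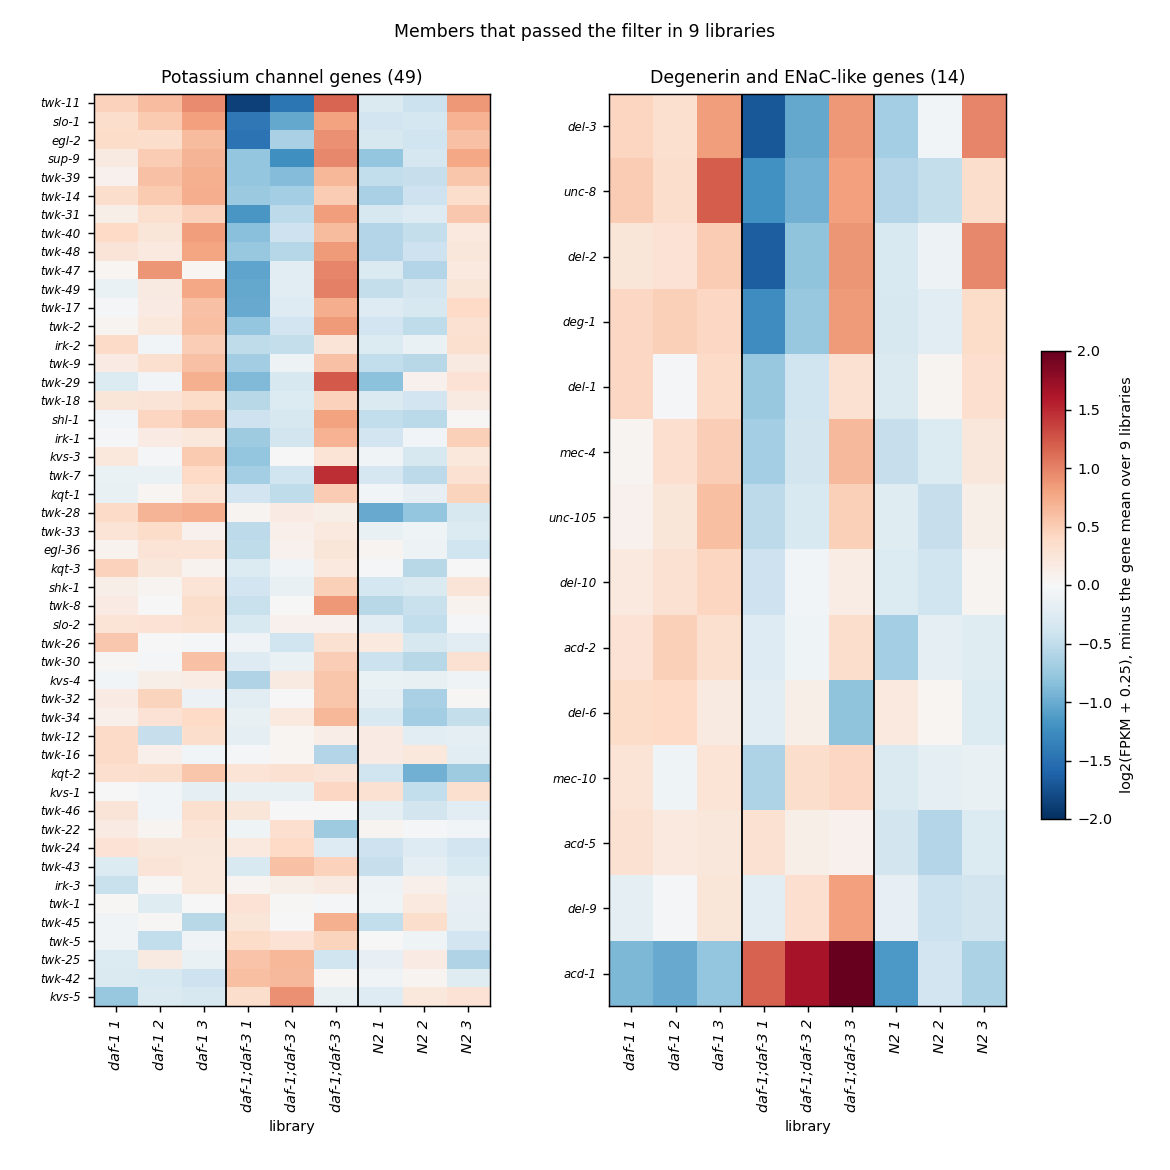
Heat map of log2(FPKM + 0.25) minus the gene's mean over 9 libraries for the 49 potassium and 14 degenerin genes tested with 9 libraries, with *daf-1* on the left, *daf-1*; *daf-3* in the middle and N2 on the right. Genes are sorted by double mutant replicates 1 and 2 relative to *daf-1*. Blue cells of those 2 libraries turn red in replicate 3 for the genes at the top, and *acd-1* in the last degenerin row is red in all 3 double mutant libraries.

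Of the members called in *daf-1* vs. double mutant, *acd-1* kept its direction in every batch. So did *kvs-5*, *slo-1*, *twk-14*, *twk-39*, *twk-40* and *unc-8*, with batch 3 differences of −0.17, 0.013, 0.22, 0.053, 0.20 and 0.39. *acd-1* encodes a degenerin channel of amphid sheath glia. It measured 0.127, 0.102 and 0.163 FPKM in *daf-1*, 1.34, 1.96 and 2.55 FPKM in *daf-1*; *daf-3*, and 0.0672, 0.291 and 0.206 FPKM in N2. These values correspond to 7, 5 and 9 fragments in *daf-1*, 72, 93 and 147 in *daf-1*; *daf-3* and 3, 14 and 14 in N2. The lowest double mutant library was above every other library. *acd-1* was lower in *daf-1* than in *daf-1*; *daf-3* by 4.94-fold on the scale used (−2.31 ± 0.35, limma adjusted p = 0.00492), and with 9 libraries by 5.65-fold (−2.5 ± 0.32, limma adjusted p = 0.00913). Both tests depend on the group where *acd-1* is high, since it reached the level limit only there. Within batches 1, 2 and 3 the difference was −2.08, −2.65 and −2.76.

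*acd-1* was also higher in *daf-1*; *daf-3* than in N2, by 2.13 ± 0.35 with 8 libraries (limma adjusted p = 0.00563) and 2.33 ± 0.32 with 9 (limma adjusted p = 0.00388). *acd-1* reached the level limit only in double mutant libraries, so the settings that raise the limit or drop one of those libraries could not test it. With no limit on level, the adjusted p in limma was 0.00776 for *daf-1* vs. double mutant and 0.00537 for double mutant vs. N2. *daf-1* and N2 differed by −0.17, with a 95% interval from −0.89 to 0.55. *acd-1* lies at I:4103698-4108167 on the plus strand, has 1 annotated transcript and overlaps with no exon of another coding gene. Its neighbour *acd-2* lies 5368 bases away on the same strand and measured 3.05, 3.53 and 3.15 FPKM in *daf-1*, 2.02, 2.30 and 3.23 FPKM in *daf-1*; *daf-3*, and 1.44, 2.16 and 2.05 FPKM in N2. The double mutant vs. N2 difference of *acd-2* was 0.19 ± 0.23 (limma adjusted p = 0.619).

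A weaker member of the same pattern was *twk-5*, chosen after its values were seen. It measured 4.86, 3.57 and 4.86 FPKM in *daf-1*, 6.66, 6.35 and 7.10 FPKM in *daf-1*; *daf-3*, and 5.13, 4.83 and 3.87 FPKM in N2. *acd-1* and *twk-5* were the 2 tested members with all 3 double mutant libraries above the 6 others, and no member had all 3 below. The share of all tested entries with either pattern was not counted, so these counts cannot be read as a trait of the members. The *daf-1* vs. double mutant difference of *twk-5* was −0.54 ± 0.20 (limma adjusted p = 0.0599).

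Against N2, the double mutants had 3 called members with 8 libraries. *acd-1* was higher. The share of all entries called higher was 3.56%, but the test of *acd-1* depends on the group where it is high, so its call cannot be set against that share. *slo-1* and *twk-11* were lower (3.28% of 61, background 5.34%). *slo-1* was lower by −1.21 ± 0.34 (limma adjusted p = 0.041) and *twk-11* by −1.71 ± 0.40 (limma adjusted p = 0.0225). With 9 libraries *slo-1* and *twk-11* were at −0.54 and −0.77 (limma adjusted p = 0.719 and 0.698). *acd-1* was the 1 member called, again in a test that depends on the group where it is high. Of all entries 2.35% were called higher and 0.489% lower. With the batch block *slo-1* fell below the fold limit at −0.97 and *kqt-2* passed it. The class medians were −0.077 (potassium) and −0.046 (degenerin) with 8 libraries and 0.11 and 0.060 with 9.

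Between batches, no channel gene was called, but the members leaned together. Over the 9 libraries 53 of 63 tested members were higher in batch 3 than in the mean of batches 1 and 2, with a median of 0.50, against −0.034 over all tested entries. By limma 0 members passed the adjusted threshold (0.0216% of entries were called higher), while 27 members were higher and 3 lower at an unadjusted p below 0.05, with 17.6% and 14.3% of all entries. Without double mutant replicate 3 the median was 0.31, and 14 members were higher (background 9.61%) and 1 lower (background 5.54%) at that p. The differences with the smallest p in limma included *twk-49* (1.02 ± 0.22), *unc-8* (1.19 ± 0.29), *slo-1* (1.16 ± 0.29) and *del-3* (1.34 ± 0.34), each with an adjusted p of 0.1. Without *daf-1* replicate 3, 9 members were called. The share of all tested entries called in that setting is not given here, so this count cannot be read as a trait of the members.

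The lean was present in each genotype and of unequal size. The median difference over the 63 members was 0.21 in *daf-1*, 0.73 in *daf-1*; *daf-3* and 0.46 in N2, against −0.012, −0.033 and −0.035 over all entries. Batch 3 was above both other batches for 41 of 63 members in *daf-1* (background 31%), 49 in *daf-1*; *daf-3* (background 40%) and 42 in N2 (background 35%). In 31 of 63 members (49.2%, background 17.4%) batch 3 was above both other batches in all 3 genotypes, 25 of them potassium and 6 degenerin. Members that ran the other way included *del-6*, at −0.44 ± 0.12 (limma adjusted p = 0.1). Batch 3 libraries were also the deepest of their genotype, and whether that has a part in the lean was not tested.

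**Figure D4:**
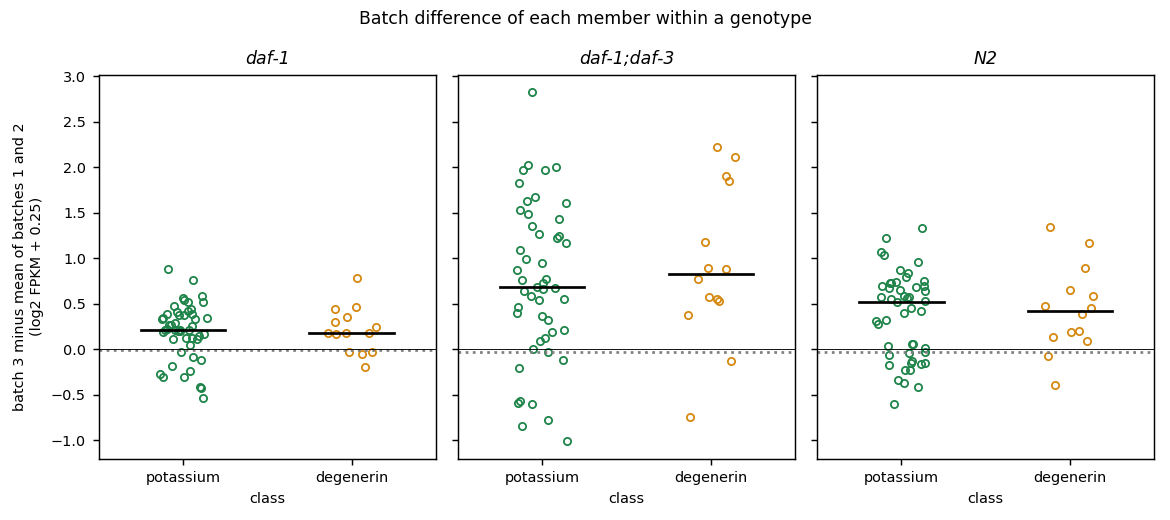
Difference between batch 3 and the mean of batches 1 and 2, in log2(FPKM + 0.25), for each tested member within a genotype, with class medians as bars and the median of all tested entries as a dotted line. Medians are above 0 in both classes of all 3 genotypes, and the spread is widest in *daf-1*; *daf-3*, where differences reach 2.83.

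On average, neuron markers were high and low in much the same libraries as the channel genes. Not every gene followed. *snb-1* measured 253, 249 and 252 FPKM in *daf-1* and 337, 278 and 326 FPKM in *daf-1*; *daf-3*, and *unc-119* was highest in N2 (31.6 to 33.1 FPKM). The mean of the 15 neuron genes relative to each gene's own mean was 0.17, 0.18 and 0.50 in *daf-1* replicates 1 to 3, −0.46, −0.23 and 0.66 in *daf-1*; *daf-3*, and −0.54, −0.34 and 0.052 in N2. The 63 channel genes had 0.12, 0.17 and 0.34 in *daf-1*, −0.45, −0.15 and 0.48 in *daf-1*; *daf-3*, and −0.31, −0.28 and 0.087 in N2. Batch 3 of the double mutant was highest in both sets. Over all 13907 tested entries the mean ran in a like order over a smaller range. It was 0.093, 0.087 and 0.12 in *daf-1*, −0.15, −0.056 and 0.11 in *daf-1*; *daf-3*, and −0.11, −0.091 and −0.0061 in N2. The 19 other cation channel genes ran from −0.53 in *daf-1*; *daf-3* replicate 1 to 0.66 in replicate 3. The likeness is therefore not particular to neuron markers. The 7 body wall muscle genes ran differently, with 0.28, 0.44 and 0.30 in *daf-1*, −0.43, 0.28 and 0.26 in *daf-1*; *daf-3*, and −0.43, −0.35 and −0.34 in N2, and a batch 3 difference with a median of −0.024.

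The summed level of the neuron list was less uneven. It was 567 to 622 FPKM in *daf-1*, 571, 542 and 750 FPKM in *daf-1*; *daf-3* replicates 1 to 3, and 453 to 544 FPKM in N2. The 6 touch receptor neuron genes summed to 41.7 to 55.9 FPKM in *daf-1*, 21.3, 32.9 and 58.5 FPKM in the double mutants and 28.6 to 44.9 FPKM in N2. The 9 hypodermis and molting genes summed to 1116 to 1403 FPKM in *daf-1*, 238, 295 and 1820 FPKM in the double mutants and 719 to 1507 FPKM in N2. None of the genes of these 3 lists that have an entry of their own was at 0 in all libraries.

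By the same test, 4 of 15 neuron genes (*snt-1*, *rab-3*, *unc-31*, *unc-10*), 1 of 6 touch receptor neuron genes (*mec-2*, which is also listed among the channel partners), 1 of 7 body wall muscle genes (*myo-3*), 6 of 9 hypodermis and molting genes, 0 of 6 intestinal genes and 0 of 5 oocyte genes were called higher in *daf-1* than in *daf-1*; *daf-3*, and none was called lower. At an unadjusted p below 0.05, 4 of the 6 intestinal genes were higher (background 22.9%) and all 5 oocyte genes were lower (background 26%). With all 9 libraries none of these genes was called in that comparison. The part of tissue make-up or molting stage in the channel differences was not tested.

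**Figure D5:**
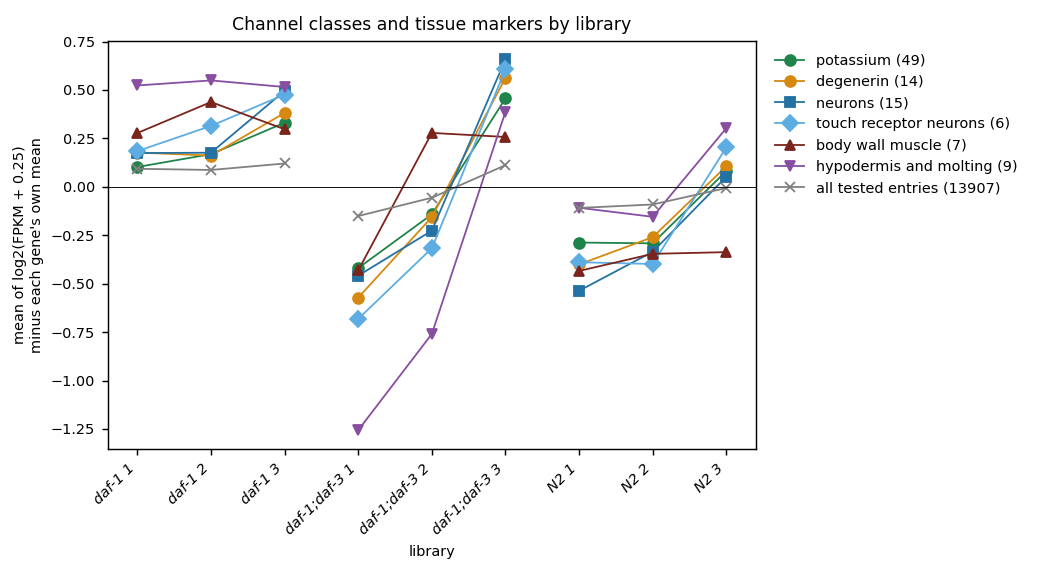
Mean of log2(FPKM + 0.25) minus each gene's own mean, by library, for the potassium and degenerin classes, 4 marker lists and all tested entries, with the number of genes in brackets. The 2 channel classes run close to the neuron and touch neuron lists, and the molting list runs from −1.26 in *daf-1*; *daf-3* replicate 1 to 0.55 in *daf-1* replicate 2.

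Other channel genes, listed from knowledge of the families, give the setting. Among proteins that work with these channels, 4 of 12 tested genes were higher in *daf-1* than in *daf-1*; *daf-3* (background 11.2%). They were *mec-2* (1.72), *mec-6* (1.07), the potassium channel accessory gene *mps-2* (1.26) and the stomatin gene *unc-1* (1.38), and none was called with 9 libraries. *mec-6*, a subunit-like partner of MEC-4, measured 3.06, 3.82 and 4.50 FPKM in *daf-1*, 1.62, 1.70 and 4.21 FPKM in *daf-1*; *daf-3*, and 3.66, 2.83 and 5.10 FPKM in N2. *mec-6* and *mps-2* were also lower in *daf-1*; *daf-3* than in N2 with 8 libraries, by −1.07 and −1.04 (limma adjusted p = 0.0284 and 0.0159).

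Of 17 other tested cation channel genes 5 were higher in *daf-1* than in *daf-1*; *daf-3*, *unc-2*, *egl-19*, *unc-36*, *ccb-1* and *tag-180*, and none was lower (background 11.2% higher, 1.43% lower). With all 9 libraries 0 of 19 were called by limma, and 0 were below an unadjusted p of 0.05. The first 4 encode subunits of voltage-gated calcium channels. *unc-2*, the presynaptic calcium channel, measured 14.4, 16.4 and 20.7 FPKM in *daf-1*, 4.73, 6.07 and 28.2 FPKM in the double mutants, and 7.88, 12.2 and 19.7 FPKM in N2, with double mutant replicates 1 and 2 lowest as for *slo-1*. Chloride channel genes had 1 call among 9, the bestrophin *best-5* (1.04, background 11.2%), which was lost with 9 libraries (0.76, limma adjusted p = 0.216). In the same comparison 0 of 4 further potassium channel entries were called by limma and 1 was higher at an unadjusted p below 0.05, *shw-3* (1.19 ± 0.43, limma adjusted p = 0.0577).

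Of the degenerins outside the set, *delm-2* and *egas-3* could be tested with 9 libraries. *delm-2* measured 0.146, 0.178 and 0.158 FPKM in *daf-1*, 0.431, 0.509 and 0.925 FPKM in *daf-1*; *daf-3*, and 0, 0.0911 and 0.209 FPKM in N2, and reached the level limit only in the double mutant. *egas-3* measured 0.609, 0.556 and 0.455 FPKM in *daf-1*, 0.652, 0.827 and 0.729 FPKM in *daf-1*; *daf-3*, and 0.393, 0.423 and 0.319 FPKM in N2. All 3 double mutant libraries were above the other 6 for both genes, a pattern whose share of all tested entries was not counted. For double mutant vs. N2 with 9 libraries neither was called (1.32 and 0.65, limma adjusted p = 0.0695 and 0.2). *egas-3* was higher at an unadjusted p below 0.05 in limma (background 10.7%). The test of *delm-2* depends on the group where it is high, so its p is not set against that share.

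Potassium channel genes lie on all 6 chromosomes, and degenerins on each but chromosome III. In the WBcel235 annotation 24 of 79 members (30.4%) lie on X, against 13.7% of coding genes, with 18 of 59 potassium and 6 of 20 degenerin genes. The median exonic length was 2050 bases in the potassium class and 2300.5 bases in the degenerin class, against 1161 bases for all coding genes. Exons of 25 members overlap with those of another coding gene, and 5 pairs of members lie less than 20000 bases apart. The share of all coding genes with such an overlap was not counted. These positions come from a later annotation release than the one the authors used, so overlaps in their gene models may differ. Values of overlapping members such as *twk-48* (111 bases shared with *dhhc-4*) and *twk-49* (653 bases shared with 2 genes) may include fragments of the neighbour.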

How the data were processed

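The authors trimmed reads with Trim Galore 0.4.0 after bcl2fastq 1.8.4, aligned them with TopHat2 2.0.12 and estimated expression with Cufflinks (version given as 2.21) and Cuffdiff. The deposited values are FPKM, with 1 column per library, and the genome build is WBcel235. FPKM normalizes for depth and length, so fragment totals are not known, and summed FPKM was 748170 to 959313 per library. Here 186 rows without a gene name were left out (0.0502 to 0.257% of FPKM).

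Entries with at least 0.5 FPKM in 2 libraries were tested on log2(FPKM + 0.25) with limma 3.58.1 (R 4.3.3; empirical Bayes with trend), with Benjamini-Hochberg adjustment over all tested entries (13751 with 8 libraries, 13907 with 9). The 3 genotypes shared 1 fit. Batch 3 was set against batches 1 and 2 with genotype in the fit. The code was tested on simulated data.

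Named genes were members called in any comparison with 8 libraries, the 3 most abundant members per class, the member with the smallest p per class and comparison, the largest differences among members called between batches (there were none), *unc-8* and *twk-40*; others illustrate families or patterns and were chosen with values known. Members and lists were chosen with earlier results of these data known. The study calls its replicates biological and equates them with batches, and deviations of same-numbered libraries correlated at r = 0.087 to 0.520 over the 3 comparisons. Library strand setting was not given in the sources used here. Alternatives were other pseudocounts, filters, scalings, all 9 libraries, a batch block and leaving out each library. Sequences were not analysed here.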

Additional observations from a re-analysis of the deposited data

How the results depend on the processing

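Results were recomputed with other settings, 1 at a time. Of the counts of called members 53 stayed within 1.5 times and 25 moved, and of the class medians 138 stayed and 12 moved. Of the values of single genes 1200 kept their side of the threshold, 125 lost the call, 15 gained it and 0 reversed. Reversed means a change of sign with a call in either setting. Values called in neither setting did change sign, such as *kqt-2* in *daf-1* vs. double mutant, from 0.13 to as low as −0.26. Where a value moved, the cause was not tested beyond the change of setting itself.

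For *daf-1* vs. N2 (2 members called) the count was 0 with a pseudocount of 1, 1 with a 2 FPKM filter, 0 with quantile normalization and 6 without a minimum fold. For *daf-1* vs. double mutant (15 called) it was 1 with 9 libraries, 1 with 9 libraries and the replicate block, 10 with the block and 8 libraries, 4 with a pseudocount of 1, 9 with the 2 FPKM filter and 7 with quantile normalization. For double mutant vs. N2 (3 called) it was 1 with 9 libraries, 1 with 9 libraries and the replicate block, 3 with the block and 8 libraries, 5 with a pseudocount of 0.1, 5 with quantile normalization, 5 without a minimum fold and 1 with only the 2 genotypes fitted. Leaving out 1 library gave 1 to 7 calls for *daf-1* vs. N2, 1 to 15 for *daf-1* vs. double mutant, 0 to 6 for double mutant vs. N2 and 0 to 9 for batch 3 (0 called). The block changed no call other than those given with the results. Shares of all entries called with 1 library left out are not given here, so those counts describe the members alone.

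Quantile normalization gave potassium and degenerin medians of −0.018 and 0.080 for *daf-1* vs. N2, −0.059 and 0.10 for *daf-1* vs. double mutant, and 0.22 and 0.15 for batch 3. It moved the median of all entries to −0.10 in *daf-1* vs. N2. The potassium median was 0.11 for double mutant vs. N2 with 9 libraries, with or without the replicate block, and 0.24 for batch 3 with a pseudocount of 1. Leaving out 1 library gave potassium and degenerin medians of 0.30 to 0.61 and 0.52 to 0.80 for *daf-1* vs. double mutant, and of −0.22 to 0.046 and −0.37 to 0.012 for double mutant vs. N2.

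With double mutant replicate 3 included, 14 of the 15 calls against that genotype were lost. Low FPKM values also limit precision, since genes such as *twk-14* and *acd-1* rest on fewer than 10 fragments in several libraries. *daf-1*; *daf-3* has 2 libraries in the 8-library fit, and leaving out 1 of them assumes that the lone library varies like the other groups.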
